A study of Gallus gallus with 6 samples.

Results

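*GAS1*, *BOC* and *CDON* encode 3 cell surface co-receptors of Hedgehog signaling. They were chosen by gene name and identifier, with earlier results of these data known, and make up 3 of the 10337 genes with a deposited value. Hedgehog ligands such as SHH bind the receptor PTCH1, which otherwise holds the transducer SMO inactive at the primary cilium. GAS1, BOC and CDON bind the ligand and PTCH1 at the cell surface and promote the response. GAS1 is a GPI-anchored protein related to the GDNF receptors. BOC and CDON are transmembrane proteins with immunoglobulin and fibronectin type III repeats, and are related to each other. In the mouse, loss of Gas1 or Cdon, or combined loss with Boc, causes midline and facial defects, and their transcripts are repressed where Hedgehog signaling is strong.

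The samples were facial prominences of chick embryos at HH25, labelled either control or *talpid2*, the latter an autosomal recessive ciliary mutation kept by mating heterozygous carriers. The frontonasal prominence (FNP), the maxillary prominence (MXP) and the mandibular prominence (MNP) were each pooled from 8 embryos. There were thus 6 libraries, control FNP, MXP and MNP and *talpid2* FNP, MXP and MNP, with 1 library for each genotype and prominence and no replicate. The genotype of the control embryos was not given further, and the prominences of a genotype may have come from the same 8 embryos. Whole prominences were used, so fewer cells of a type and less RNA per cell cannot be told apart.

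Each deposited value is the log2 expression of a gene relative to its own median over the 6 libraries. A value of 0 is therefore that gene's median, and levels cannot be compared between genes. The labels fitted the prominence markers for the most part: all 4 measured genes of the mandibular list (*HAND2*, *DLX5*, *DLX6* and *GSC*) were higher in both MNP libraries than elsewhere, *ALX1* was highest in both FNP libraries, and *LHX8* and *LHX6* in both MXP libraries, whereas *PITX1* of the maxillary list was highest in both MNP libraries. *C2CD3*, the ciliary gene linked to *talpid2*, had log2 ratios of *talpid2* to control of −0.18 (FNP), −0.41 (MXP) and −0.16 (MNP). Sequencing depth relative to the median library ranged from 0.949 to 1.20, a 1.27-fold range. Reads were recovered from the values where these were whole numbers of sequenced bases. For every gene the smallest such solution is given, a lower bound if whole bases were counted.

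*GAS1* (ENSGALG00000017658) lies on the minus strand of chromosome Z, from 40568647 to 40569333, in the Ensembl chick annotation used by the authors. *BOC* (ENSGALG00000015152) lies on the minus strand of chromosome 1, from 86600181 to 86644954, and *CDON* (ENSGALG00000000939) on the minus strand of chromosome 24, from 335123 to 358465. No other listed gene overlapped any of them. All 3 genes were within the expression limits set by the authors in all 6 libraries.

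*GAS1* varied most among the 3 genes. Its log2 value was −0.29 in control FNP, 0.15 in control MXP and 0.74 in control MNP. It was −0.64 in *talpid2* FNP, −0.15 in *talpid2* MXP and 0.24 in *talpid2* MNP. *GAS1* thus had the order FNP, MXP and MNP from lowest to highest in both genotypes, and was lower in the *talpid2* library of every prominence. The order from lowest to highest was *talpid2* FNP, control FNP, *talpid2* MXP, control MXP, *talpid2* MNP and control MNP, over a 2.60-fold range. The libraries of a prominence did not overlap with those of another prominence, as was so for 19.9% of all genes. These values rested on at least 2391, 2804 and 5107 reads of control FNP, MXP and MNP, and on at least 1549, 2262 and 3037 reads of the *talpid2* libraries in the same order.

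*CDON* shared the low FNP but not the stepwise order. The log2 value of *CDON* was −0.28 in control FNP, 0.09 in control MXP and 0.11 in control MNP. In *talpid2* FNP it was −0.47, in *talpid2* MXP 0.02 and in *talpid2* MNP −0.02. Both FNP libraries lay below the other 4, as for 15.9% of all genes. The other 4 fell close together, and the whole range was 1.49-fold. At least 1399, 1561 and 1924 reads lay behind the control values and at least 1017, 1482 and 1484 behind the *talpid2* values, in the order FNP, MXP and MNP.

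*BOC* had a different order, with its lowest values in the MXP. *BOC* had log2 values of −0.03 in control FNP, −0.32 in control MXP and 0.16 in control MNP. Those of *talpid2* FNP, MXP and MNP were 0.03, −0.23 and 0.35. The prominences did not overlap, and the *talpid2* library was slightly the higher one in each, over a whole range of 1.59-fold. *BOC* had 648, 459 and 778 reads in control FNP, MXP and MNP and 560, 486 and 743 in their *talpid2* counterparts. Both libraries of each prominence stood apart from those of the other prominences for 19.9% of all genes, and both FNP libraries lay below the other 4 for 15.9%.

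**Figure D1:**
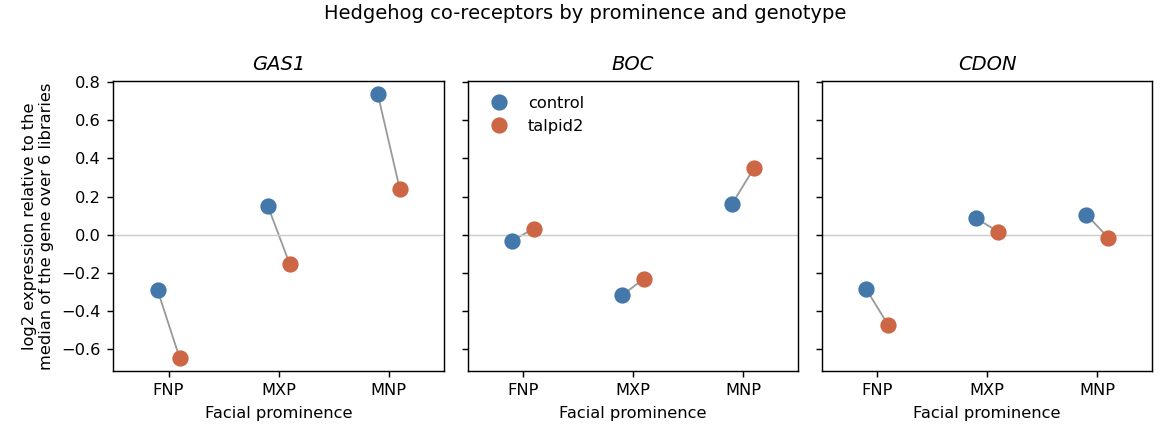
Log2 expression (vertical axis) of *GAS1*, *BOC* and *CDON* relative to each gene's median over 6 libraries, in the FNP, MXP and MNP (horizontal axis), with 1 point per library, control in blue and *talpid2* in orange, and a grey line joining the 2 libraries of a prominence. *GAS1* climbs from −0.64 in the *talpid2* FNP to 0.74 in the control MNP, *BOC* is lowest in the MXP, and *CDON* is lowest in the FNP.

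The differences between prominences were tested with limma on the log2 values of all genes, with genotype as a term, so that the control and *talpid2* libraries of a prominence stood in for replicates. Adjusted p-values are Benjamini-Hochberg values over 10337 genes. *GAS1* was higher in the MNP than in the FNP by 0.95 (SE 0.074, adjusted p = 0.0108), a comparison in which 4.91% of all genes were called higher. The difference was 1.02 between the control libraries and 0.88 between the *talpid2* libraries. *GAS1* was also higher in the MXP than in the FNP by 0.47 (SE 0.074, adjusted p = 0.0486), where 3.39% of genes were called higher. The step from the MXP to the MNP was of similar size, 0.49 (SE 0.074), and missed the threshold (adjusted p = 0.0598). The MXP to FNP call of *GAS1* was lost when the library medians were set equal (adjusted p = 0.0504), and without a genotype term no FNP contrast of *GAS1* passed.

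*CDON* was higher than in the FNP by 0.43 for MXP (SE 0.062, adjusted p = 0.0404) and by 0.42 for MNP (SE 0.062, adjusted p = 0.0354). The MNP and MXP differed by −0.01 (SE 0.062, adjusted p = 0.976). The separate values for the control and *talpid2* libraries were 0.37 and 0.49 for the MXP against the FNP, and 0.39 and 0.46 for the MNP against the FNP. Both calls were lost without a genotype term (adjusted p = 0.0720 and 0.0674).

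*BOC* was higher in the MNP than in the MXP by 0.53 (SE 0.063, adjusted p = 0.0385), a comparison in which 2.65% of genes were called higher. This difference was 0.48 between the control libraries and 0.58 between the *talpid2* libraries, and the call was lost without a genotype term (adjusted p = 0.0519). Against the FNP, *BOC* was lower in the MXP by −0.27 (SE 0.063, adjusted p = 0.0960) and higher in the MNP by 0.26 (adjusted p = 0.0999), and neither passed. Altogether 5 of the 9 differences between prominences passed for the 3 genes. Of all 10337 genes, limma called 816 (MXP against FNP), 1051 (MNP against FNP) and 480 (MNP against MXP) in either direction. *GAPDH*, a glycolytic enzyme often used as a reference, was itself lower than in the FNP by −0.30 (MXP) and −0.38 (MNP). Scaling to *GAPDH* moved the median of all genes to 0.30 and 0.38 in these contrasts. *BOC* then differed by 0.02 between MXP and FNP (adjusted p = 0.797 by limma) and by 0.64 between MNP and FNP (adjusted p = 0.0111). With that scaling limma called 7113 of 10336 genes between MNP and FNP, 6710 of them higher, so most genes shared the *BOC* call. On this scale the differences from the FNP were 0.76 (MXP) and 1.33 (MNP) for *GAS1* and 0.73 (MXP) and 0.80 (MNP) for *CDON*, each about as far above those of the deposited scale as the median of all genes.

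**Figure D2:**
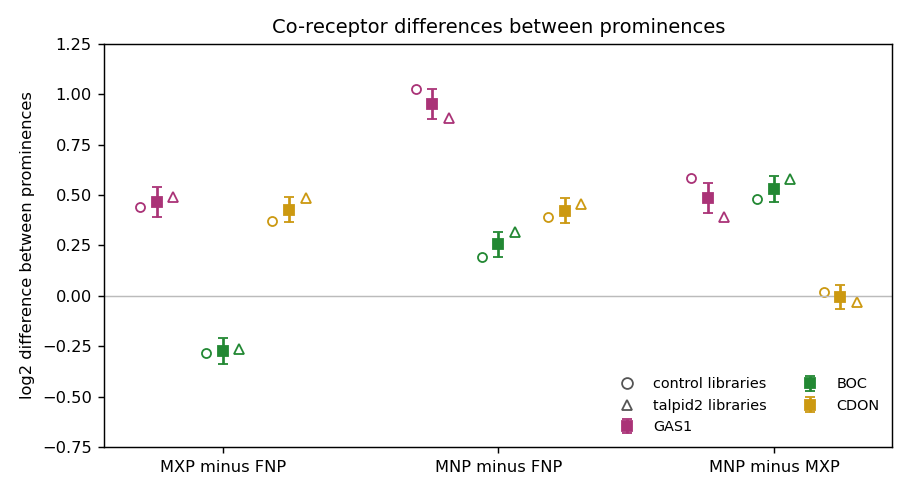
Log2 difference between prominences (vertical axis) for the 3 pairs of prominences (horizontal axis) in *GAS1* (purple), *BOC* (green) and *CDON* (yellow). Squares are the limma estimates over both genotypes with the standard error as bars, open circles the control libraries alone and open triangles the *talpid2* libraries alone. *GAS1* reaches 0.95 for MNP minus FNP, *BOC* is −0.27 for MXP minus FNP, and *CDON* is −0.01 for MNP minus MXP.

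The comparison of *talpid2* with control asked whether the co-receptors differ in the mutant prominences. *GAS1* was lower in the *talpid2* library of each prominence. Its log2 ratios were −0.35 for FNP (0.783-fold), −0.31 for MXP (0.809-fold) and −0.50 for MNP (0.709-fold). The 95% intervals, which cover counting error only and hold for the smallest read numbers, were −0.45 to −0.26, −0.39 to −0.22 and −0.56 to −0.43. By the exact Audic-Claverie test, which compares the reads of 2 libraries and not 2 genotypes, *GAS1* passed in all 3 prominences, with p-values adjusted over 5138 genes of 4.18e-12, 1.61e-11 and 1.68e-49. The same test called 10.5% of genes (FNP), 6.44% (MXP) and 6.97% (MNP), of which the lower ones made up 5.47%, 3.33% and 3.72% of the genes tested. Apart from *GAS1* and *CDON*, the 5138 genes tested had at most 1000 recovered reads in any library. *GAS1* had more reads than that in every library, so the same ratio is called more easily for it. The shares do not cover other genes with that many reads.

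Although the sign was the same throughout, the size of the *GAS1* difference was within the range of many genes. Among all genes, 7.83% (FNP), 8.14% (MXP) and 3.74% (MNP) had a ratio as low or lower. Genes that were lower in *talpid2* in all 3 prominences made up 21.7% of the total, and 1.12% (116 genes) were lower in all 3 by at least the smallest *GAS1* difference. The same share was 10.2% for *CDON* and, for genes higher in all 3, 9.3% for *BOC*. No ratio of *GAS1*, *BOC* or *CDON* reached 1 on the log2 scale, whereas 1.86% of genes (FNP), 1.72% (MXP) and 1.54% (MNP) did so in either direction.

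*CDON* was lower in the *talpid2* libraries by smaller amounts. Its log2 ratios were −0.19 for FNP (interval −0.31 to −0.07), −0.07 for MXP (−0.17 to 0.03) and −0.12 for MNP (−0.22 to −0.02). The exact Audic-Claverie test passed in the FNP (adjusted p = 0.0200) but not in the MXP (adjusted p = 0.525) or the MNP (adjusted p = 0.126). The FNP call was lost when the reads were set to 0.5 of the smallest solution (adjusted p = 0.152). Scaled to *GAPDH*, which put the median of all genes at −0.12 (MXP) and −0.08 (MNP), the other *CDON* ratios were −0.18 and −0.20 and both passed.

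*BOC* showed the opposite sign, and no call. Its log2 ratios were 0.06 for FNP (interval −0.10 to 0.23), 0.09 for MXP (−0.10 to 0.27) and 0.19 for MNP (0.04 to 0.33). The adjusted p-values of the exact Audic-Claverie test were 0.752, 0.711 and 0.116, and 13.4% of all genes had a ratio as high or higher in the MNP. Genes higher in all 3 prominences made up 20.5% of the total. The MXP ratio of *BOC* was −0.02 when scaled to *GAPDH*.

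**Figure D3:**
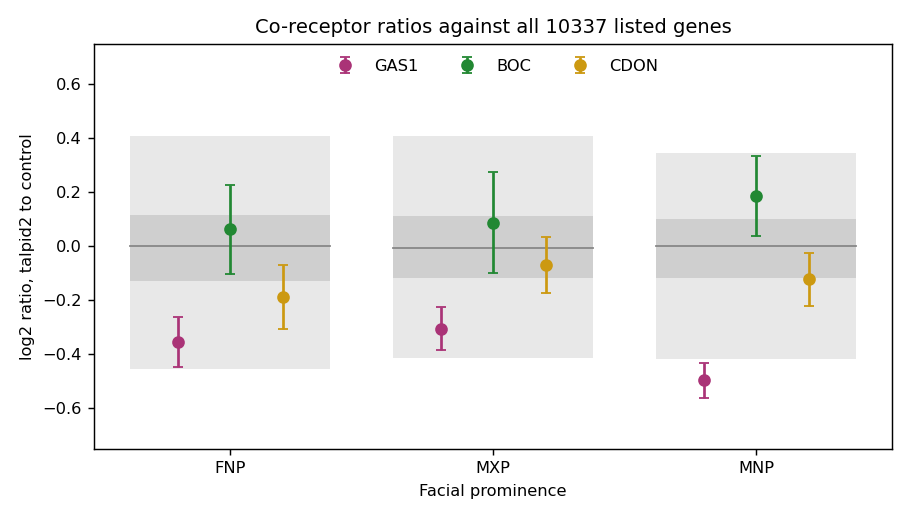
Log2 ratio of *talpid2* to control (vertical axis) in each prominence (horizontal axis) for *GAS1* (purple), *BOC* (green) and *CDON* (yellow), with 95% counting intervals as bars, over all 10337 genes, where light grey spans the 5th to 95th percentile, dark grey the 25th to 75th and the line is the median. *GAS1* falls below the 5th percentile of −0.42 in the MNP and lies inside the light band in the FNP and MXP, while *BOC* stays above 0 and *CDON* below 0.

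Because the scaling of a library cancels between genes of that library, the 3 genes can be set against each other without it. Relative to *BOC*, the *talpid2* to control ratio of *GAS1* was lower by −0.42 (FNP), −0.39 (MXP) and −0.68 (MNP), the last being 0.622-fold. Relative to *BOC*, *CDON* was at −0.25, −0.16 and −0.31. Relative to *CDON*, *GAS1* was at −0.17, −0.24 and −0.38. The order of the ratios was thus *GAS1*, *CDON* and *BOC* from lowest to highest in each of the 3 prominences, whatever the reference gene.

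Whether the ratios differed between prominences was tested directly by an exact conditional test, adjusted over the same 5138 genes. Of these, only *GAS1* and *CDON* had more than 1000 reads in any library. The *GAS1* ratio was 0.19 higher in the MXP (−0.31) than in the MNP (−0.50), with an adjusted p of 0.0182, in a comparison that called 2.14% of genes. This call was lost with *GAPDH* as the reference (0.16, adjusted p = 0.0749) and with 0.5 of the smallest reads (adjusted p = 0.205). The *GAS1* ratios of the FNP and MXP differed by −0.05 (adjusted p = 0.808; 3.91% of genes called) and those of the FNP and MNP by 0.14 (adjusted p = 0.185; 3.7% called). Scaled to *GAPDH*, the first difference was 0.07 (adjusted p = 0.596) and the second was 0.24 and passed (adjusted p = 0.00240). For *BOC* and *CDON* the 6 differences lay between −0.12 and 0.05, and none passed (adjusted p from 0.524 to 1).

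Taking the 3 prominences as replicates of genotype, limma gave a *talpid2* coefficient of −0.39 for *GAS1* (SE 0.060, adjusted p = 0.257). The coefficient was 0.11 for *BOC* (SE 0.052, adjusted p = 0.395) and −0.13 for *CDON* (SE 0.050, adjusted p = 0.361). No gene passed in this fit (0%), while 1542 of 10337 had an unadjusted p of at most 0.05. Over the alternatives run, the coefficient ranged from −0.45 to −0.33 for *GAS1* (adjusted p 0.168 to 0.927), from 0.05 to 0.14 for *BOC* and from −0.19 to −0.10 for *CDON*.

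Marker genes of some cell types also differed between the single control and *talpid2* libraries of a prominence. Genes of red blood cells were lower in the *talpid2* libraries, with median ratios of −1.41 (FNP), −0.99 (MXP) and −0.66 (MNP). Of the 8 measured, 7 were lower in all 3 prominences, against 21.7% of all genes. *HBA1*, an alpha globin, was at 0.72, 0.81 and 0.28 in control FNP, MXP and MNP, against −0.76, −0.28 and −0.38 in *talpid2*. The erythroid median was lowest in the FNP and the *GAS1* ratio in the MNP, and any link between them was not tested. Skeletal muscle genes had medians of −0.29, −0.18 and −0.40, all 7 being lower in the *talpid2* MNP. Only 1 of the 7 was within the authors' limits in all 6 libraries. *MYOD1*, *MYF5*, *CHRNA1*, *MYL1* and *TNNT2* were within them only in 2 libraries. Epithelial genes (7 measured) had medians of 0.18, 0.03 and −0.14, and facial mesenchyme genes (10 measured) 0.04, 0.08 and 0.00. Endothelial genes (6 measured) had medians of 0.21, 0.09 and −0.10, and neural genes (7 measured) −0.09, −0.06 and −0.07. The part of these cell types in the *GAS1*, *BOC* and *CDON* ratios was not tested.

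The prominences also differed in such genes. Of the 7 muscle genes, 5 were called higher in the MNP than in the FNP and than in the MXP. Among all genes, 4.91% and 2.65% were called higher in these comparisons, and 5.25% lower in the MNP than in the FNP. The 5 were the genes within the authors' limits in only 2 libraries, and they were highest in both MNP libraries. The filter could thus fix their calls in advance, so the count of 5 is not evidence beyond it. *TNNC1*, the gene within the limits in all 6 libraries, was not called (adjusted p = 0.131 and 0.0552 by limma). *MYOD1* was at 4.33 and 4.27 in the MNP libraries and at most 0.14 elsewhere. The 10 facial mesenchyme genes did not move one way: in the MNP against the FNP 3 were called higher (*PRRX1*, *TWIST2* and *COL3A1*) and 2 lower (*PDGFRA* and *SOX9*), with a median difference of −0.16. The part of these genes in the prominence differences of *GAS1* and *BOC* was not tested.

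*GAS1* is on chromosome Z, of which male birds carry a pair and females a single copy, and the sexes of the pooled embryos were not given. The median ratio of the 361 genes on Z was −0.05 (FNP), −0.06 (MXP) and −0.07 (MNP). Relative to that median *GAS1* was at −0.30, −0.25 and −0.43. Among the Z genes, 13.3%, 15.0% and 11.6% had a ratio as low as that of *GAS1*. *PTCH1*, which encodes the Hedgehog receptor, lies 716804 bases away on the same chromosome. The *PTCH1* ratios were −0.40 (FNP), 0.12 (MXP) and −0.48 (MNP), so the pair had the same sign in the FNP and MNP and opposite signs in the MXP.

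The other genes of ligand and reception gave a mixed picture. Of 17 listed genes 13 were measured, with median ratios of −0.15 (FNP), −0.07 (MXP) and −0.10 (MNP), against medians of 0.00 for all genes. *SHH*, the ligand, was the only one to reach 1 on the log2 scale, and did so in the FNP (1.10) and the MXP (1.59), with 0.28 in the MNP. *SHH* passed the exact Audic-Claverie test in FNP and MXP (adjusted p = 1.48e-19 and 3.27e-08) but not in the MNP (adjusted p = 0.342). *SHH* values were 0.43, −1.94 and −0.14 in control FNP, MXP and MNP, against 1.53, −0.36 and 0.14 in *talpid2*. *SHH* was therefore lowest in the MXP in both genotypes, and was called higher in *talpid2* in the FNP and MXP. *GAS1* was called lower in the FNP and MXP, and also in the MNP, where its ratio was lowest (−0.50) and *SHH* was not called. Any link between the *SHH* and *GAS1* ratios was not tested. Of the 6 libraries, *SHH* was within the authors' limits in 5. *HHIP*, a decoy receptor induced by the pathway, was also within the limits in 5 libraries. Its ratios were 0.23, 0.78 and −0.60, and it passed the exact Audic-Claverie test in the MNP alone (adjusted p = 0.00363). *SCUBE1*, a secreted protein of the family that helps to release the ligand, was called higher in the *talpid2* FNP (0.57, adjusted p = 1.37e-12) and lower in the *talpid2* MNP (−0.55, adjusted p = 1.77e-09).

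Between prominences, 5 genes of reception passed limma in the MXP against the FNP. *GPC4*, a heparan sulfate glypican, and *DISP1*, which releases the ligand from the producing cell, were higher by 1.11 and 0.65, which is the direction of *GAS1* and *CDON*. *GPC3*, a glypican that competes with *PTCH1* for the ligand, *PTCH1* itself and *SHH* were lower by −1.76, −1.34 and −2.13. In this comparison 3.39% of all genes were called higher and 4.51% lower. In the MNP against the FNP, *GPC4* (1.12) and *DISP1* (0.58) were higher and *GPC3* (−1.84) was lower. There 4.91% of all genes were called higher and 5.25% lower. *GPC3* was at 1.71 and 1.75 in the control and *talpid2* FNP and between −0.15 and 0.08 in the other 4 libraries, and *GPC4* at −0.996 and −1.15 in the FNP and between −0.02 and 0.09 elsewhere. *GPC3* and *GPC4* thus set the FNP apart as *CDON* did, in opposite directions to each other. Both FNP libraries lay below the other 4 for 15.9% of all genes, and the share above them was not counted. The remaining measured glypicans were not called in either comparison with the FNP.

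Signal transduction genes had small ratios. Of 20 listed, 16 were measured, with median ratios of −0.06, −0.08 and −0.08. In all 3 prominences 8 were lower and 1 was higher in *talpid2*, against 21.7% and 20.5% of all genes. *SMO*, the transducer, had ratios of −0.17, −0.09 and −0.18. *GLI3*, the transcription factor that acts largely as the repressor of the pathway, had ratios of 0.06, −0.35 and −0.10, and passed the exact Audic-Claverie test in the MXP (adjusted p = 0.00517). *ULK3*, a kinase of the GLI proteins, was the only other one to pass of the 8 transduction genes with recovered reads, also in the MXP (0.71, adjusted p = 0.0185). In the MXP the same test called 6.44% of the 5138 genes tested. Between prominences *SUFU*, which restrains the GLI proteins, and *STK36* were lower in the MNP than in the FNP by −0.63 and −0.38. That comparison called 5.25% of all genes lower, and *STK36* was within the authors' limits in 2 libraries.

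**Figure D4:**
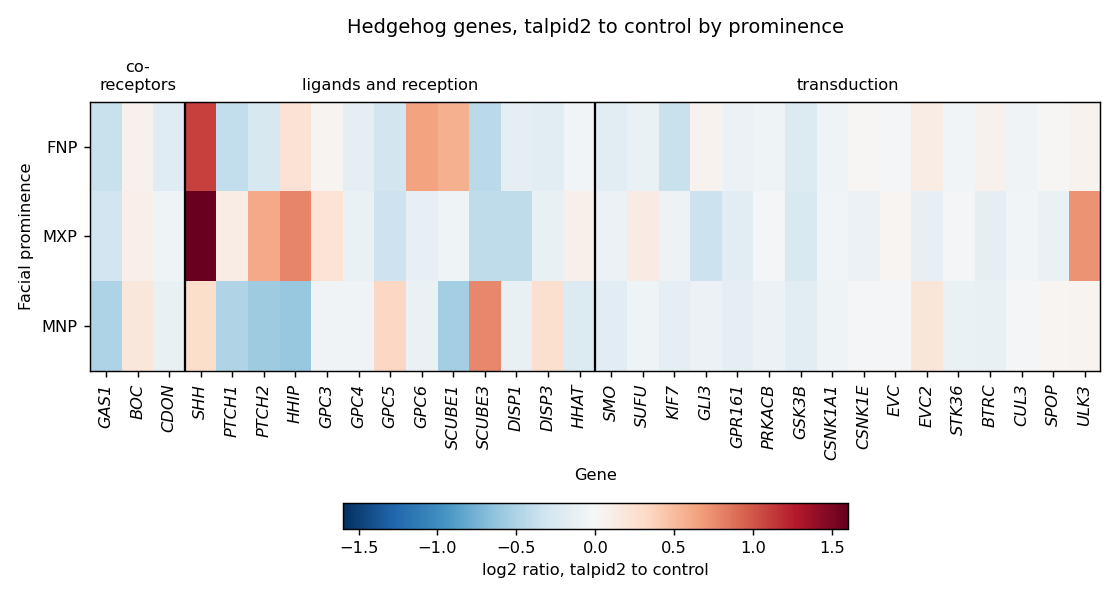
Color map of the log2 ratio of *talpid2* to control (color bar) for *GAS1*, *BOC* and *CDON* and for the 29 measured genes of Hedgehog reception and transduction (horizontal axis, black lines between the lists) in the FNP, MXP and MNP (vertical axis), red being higher in *talpid2*. *SHH* reaches 1.59 in the MXP, *GAS1* is blue in all 3 rows, and most transduction genes are pale.

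Known targets of Hedgehog signaling in facial mesenchyme had ratios whose sign differed between prominences. Of 13 listed, 8 were measured, with 7 lower in the *talpid2* FNP (median −0.39), 8 lower in the MNP (median −0.52) and 5 higher in the MXP (median 0.14). *FOXF1*, a forkhead factor, passed the exact Audic-Claverie test in the FNP (−0.39, adjusted p = 0.0238) and the MNP (−0.58, adjusted p = 0.00409), and had a ratio of 0.17 in the MXP. *FOXL1*, a related forkhead factor within the limits in 1 library, had the only ratio past 1, −1.28 in the MNP (adjusted p = 0.0662). *OSR2*, a palatal factor, was higher than in the FNP by 1.82 (MXP) and 1.12 (MNP) (adjusted p = 0.0104 and 0.0179 by limma), the order MXP above MNP differing from that of *GAS1*.

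*BOC* and *CDON* also bind partners outside the Hedgehog pathway, such as netrins, neogenin and cadherins. Of 17 such genes 12 were measured, with median ratios of −0.08, −0.01 and −0.02. The values of *NTN1*, the secreted guidance protein netrin, stood at the same floor of −5.16 in both FNP libraries, at 0.01 and −0.01 in the control MXP and MNP, and at 0.09 and 0.24 in the *talpid2* MXP and MNP. *NTN1* was within the authors' limits in 4 libraries and was thus listed at its floor in the FNP of either genotype. limma called it higher in the MXP and MNP, but that call rests on equal floor values in the FNP. It therefore adds nothing to the description. *CDH4*, a cadherin within the authors' limits in 4 libraries, was higher in the MNP than in the FNP. *UNC5B* and *UNC5C*, receptors of netrin, and *CDH2* were lower in the MNP than in the FNP. That comparison called 4.91% of all genes higher and 5.25% lower. *NEO1*, the netrin receptor related to *BOC* and *CDON*, had ratios of −0.42, −0.12 and −0.31, and *LRP6*, a WNT co-receptor, had −0.36, −0.52 and −0.44. Neither passed the adjusted limma threshold for genotype.

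Related proteins were few among the deposited genes. Of 10 immunoglobulin and fibronectin relatives of *BOC* and *CDON* 5 were measured, with median ratios of −0.25, −0.19 and −0.31. In all 3 prominences 4 of them were lower in *talpid2*, against 21.7% of all genes. *BOC* had the other sign from most of its measured relatives, but no *BOC* ratio was called, and its MXP ratio turned sign when scaled to *GAPDH*. None of the relatives passed limma for genotype. Between prominences 1 passed limma: *ROBO1* was lower in the MNP than in the FNP by −0.47 (adjusted p = 0.0470). That comparison called 5.25% of all genes lower. Of 8 genes of the GDNF receptor family, to which *GAS1* is related, *GFRA1* and *RET* were measured. *GFRA1*, a GPI-anchored receptor, was higher than in the FNP by 2.51 (MXP) and 2.81 (MNP), and *RET*, its signaling partner, was higher in the MNP than in the FNP by 3.22. Both had the order FNP, MXP and MNP from lowest to highest in each genotype, as *GAS1* had. The share of all genes with this order was not counted. *GFRA1* was within the authors' limits in 4 libraries and *RET* in 2. Such genes can be listed only through the libraries where they are high, so the order is no sign of a trait shared with *GAS1*. The MXP to FNP difference of *RET* did not pass (adjusted p = 0.0930 by limma).

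Among genes within the limits in all 6 libraries and with at least 0.5 of its range, the ones closest to *GAS1* over the 6 libraries were *PDGFD*, a platelet-derived growth factor (Pearson r = 0.989), *NT5DC3* (0.988) and *EDNRB*, an endothelin receptor of the neural crest (0.986), out of 1219 compared. *PDGFD* had *talpid2* to control ratios of −0.36, −0.09 and −0.44 in the FNP, MXP and MNP, and *EDNRB* −0.23, −0.58 and −0.61. The ones closest to *BOC* were *LOC418298* (0.982), *DNAJC12* (0.981) and *TIAM2*, an exchange factor of Rac (0.979), out of 3780. The ones closest to *CDON* were *UNG*, a uracil DNA glycosylase (0.997), *IPO8*, a nuclear import receptor (0.997), and *AKR1A1*, an aldehyde reductase (0.996), out of 4541. These values describe only 6 libraries and are given with no p. Between the co-receptors r was 0.855 for *GAS1* and *CDON*, 0.303 for *GAS1* and *BOC*, and −0.10 for *BOC* and *CDON*.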

How the data were processed

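The authors sequenced RNA of pooled facial prominences on an Illumina HiSeq and used GeneSpring with the Ensembl chick genome. Which aligner and scaling were used is not given in the sources used here. The authors deposited log2 values, normalized in each library and with the median of every gene set to 0. The file header gives cut-offs of 3.0 and 8607.81 in at least 1 library, on a scale that it does not name. Deposited with each gene is another number, the count of libraries within these limits. There were no sample columns outside the 6 libraries.

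The members, lists and tests were chosen with earlier results of these data known. Log2 values were used with no filter. Reads were recovered as whole bases, 50 to a read, times 1 step per library, for 5136 genes (49.7%), and for 1003 of the 1209 genes (83.0%) within the limits in fewer than 6 libraries. *GAS1* and *CDON* exceeded the search limit of 1000 reads and were solved beyond it. The smallest solution (a lower bound if whole bases were counted) was used for every gene. The exact Audic-Claverie test, which the study used uncorrected at 0.05, was two-sided, with Clopper-Pearson intervals at 95% and Benjamini-Hochberg adjustment over 5138 genes. An exact conditional test compared ratios between prominences. limma used prominence and genotype as terms. The labels pair libraries by prominence: deviations of the control and *talpid2* libraries of a prominence correlated at 0.809, 0.734 and 0.817. Alternatives covered scaling, pseudocounts, filters, terms and left-out libraries. The tests were checked on simulated data.

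Named list genes were those past a log2 ratio of 1 or the limma threshold, with *SHH*, *PTCH1*, *HHIP*, *SMO* and *GLI3*. *SCUBE1*, *FOXF1*, *ULK3*, *LRP6* and *NEO1*, and the marker genes named, were chosen after their values were seen. For each member the 3 genes with the highest Pearson r were named. Names came from the file for 6240 genes and from RefSeq (GRCg7b) for 3029. A further entry that the authors labelled as *GLI3* carried the Entrez identifier of another gene and was left unnamed. *GLI2* and sequences are not analysed here. Python 3.11.15, numpy 2.4.6, scipy 1.17.1, pandas 2.3.3, matplotlib 3.10.9, R 4.3.3 and limma 3.58.1 were used.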

Additional observations from a re-analysis of the deposited data

Results flagged for a closer look

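The *talpid2* to control ratio of *GAS1* was 0.19 higher on the log2 scale in the MXP (−0.31) than in the MNP (−0.50), and this difference between prominences passed the exact conditional test (adjusted p = 0.0182 over 5138 genes). *GAS1* was lower in the *talpid2* library of both prominences. The test covers counting error in 4 single libraries only, and it assumed the smallest whole-base reads. The call ended with *GAPDH* as the reference (0.16, adjusted p = 0.0749) and with reads at 0.5 of the smallest solution (adjusted p = 0.205).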

How the results depend on the processing

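Of 162 values of *GAS1*, *BOC* and *CDON* under the alternatives, 105 had an adjusted p, and 83 of these kept both their direction and their side of the threshold. Another 15 kept the direction alone, and 7 that were not called turned, all with *GAPDH* as the reference. Of the 57 values with no test 56 kept their direction, the exception being the *CDON* difference of MNP and MXP without the *talpid2* libraries (0.02). With *GAPDH* as the reference the *BOC* ratio in the MXP became −0.024, and the *CDON* ratios of −0.18 in the MXP and −0.20 in the MNP passed. The same reference gave prominence differences of 0.57 for *GAS1* (MNP minus MXP, now past the threshold), of 0.024 (MXP minus FNP) and 0.64 (MNP minus FNP, now past it) for *BOC*, and of 0.078 for *CDON* (MNP minus MXP). It also moved the differences of the *talpid2* to control ratios to 0.073 for *GAS1*, 0.098 for *BOC* and 0.0040 for *CDON* between FNP and MXP, to 0.24 for *GAS1* (adjusted p = 0.00240) and 0.026 for *CDON* between FNP and MNP, and to 0.16 for *GAS1* between MXP and MNP, which ended that call (adjusted p = 0.0749). The number of genes called by limma rose to 5059 (MXP minus FNP) and 7113 (MNP minus FNP), where *GAPDH* itself was lower than in the FNP.

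Reads at 0.5 of the smallest solution (chosen after seeing the data) ended the calls of *CDON* in the FNP (−0.19) and of the *GAS1* difference between MXP and MNP (0.19), and the median of chromosome Z genes, also chosen after seeing the data, moved the *GAS1* ratio in the MNP to −0.43. Equal library medians ended the call of *GAS1* between MXP and FNP (0.46). Without a genotype term the calls of *GAS1* (0.47 and 0.95), *CDON* (0.43 and 0.42) and *BOC* (0.53) ended. With genes within the limits in all 6 libraries alone, the *GAS1* difference of 0.49 between MNP and MXP passed (adjusted p = 0.0380), and 37, 29 and 15 genes had a log2 ratio of at least 1 in the FNP, MXP and MNP. A threshold of 0.5 gave 812, 735 and 645. By root mean square difference, 0 of the 3 genes nearest to *CDON* were shared.

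Without the replicate block of prominence, the genotype coefficients were the same and the adjusted p was 0.927 for *GAS1*, 0.989 for *BOC* and 0.980 for *CDON*, and no call changed. Leaving out each pair of libraries gave coefficients of −0.43 to −0.33 for *GAS1*, 0.08 to 0.14 for *BOC* and −0.15 to −0.10 for *CDON*. With 1 library per group, depth limits only the counting error.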
